A study of Homo sapiens with 24 samples.

Results

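The ZNF genes that carry a number belong to the large C2H2 zinc finger family of DNA-binding proteins, and 165 of them were expressed in the lymphoma cells studied here. They were chosen by name, ZNF followed by digits and at most 1 letter, and selected on the measured mean of the 5 controls at 72 h, which had to be 300 or more. The table names 510 such genes among 19836 rows, and the other 345 fell below that mean. All 165 are also in the 48 h table, of 61541 genes, where 164 passed the filter on low values. The exception was ZNF410, an activator of the remodeller gene CHD4. Its 72 h values were 676 ± 137 in PNA2 and 551 ± 52.5 in control libraries (SD, n = 5 each), but its 48 h values averaged only 7.78 in PNA2, 9.90 in siRNA and 7.89 in control libraries, and its exons overlap those of PTGR2 on the same strand. CHD4 itself averaged 361 in 48 h controls and 4220 in 72 h controls. Among other members, ZNF623 at 20.05 and 534, ZNF251 at 40.6 and 587 and ZNF780B at 22.1 and 309 were likewise far lower in the 48 h table. So were ZNF197, with controls at 48.7 to 62.5 and 249 to 393, and ZNF707, at 39.3 to 61.1 and 191 to 355. Exons of ZNF780B overlap a gene on the same strand, while those of ZNF623, ZNF251, ZNF197 and ZNF707 overlap none. The tables were normalized separately, and the cause of the low 48 h values was not tested. The mean level chose the members, so their levels at 72 h are given as a description. Just inside the limit were ZNF430 at 302, ZNF707 at 304 and ZNF143 at 308, and just outside it ZNF689 at 292, ZNF264 at 291 and ZNF408 at 284.

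The cells were U2932, a human line of diffuse large B-cell lymphoma, which the labels also give as bone marrow in source. At 48 h there were 4 libraries labelled PNA2, a gamma peptide nucleic acid directed at MYC and given at a labelled dose of 8 mM (a doubtful unit), 4 libraries of cells electroporated with 500 nM of MYC siRNA, and 6 controls in PBS. At 72 h there were 5 PNA2 libraries and 5 PBS controls. The labels name no electroporated control, give the siRNA libraries cell line entries that differ from U2932 in the last digit, mention 48 h alone in the extraction text, and do not say whether replicates were separate cultures. The p-values therefore measure the spread between these libraries, which may be technical.

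Zinc finger proteins of this family read DNA with tandem C2H2 fingers, each a short loop held by a zinc ion through a pair of cysteines and a pair of histidines. Many carry a KRAB box at the N-terminus. It binds TRIM28 (KAP1), which brings in the histone H3 lysine 9 methyltransferase SETDB1 and HP1 proteins, and the targets are largely transposable elements. KRAB zinc finger genes lie in clusters of recent duplicates, many of them on chromosome 19. Members without the box include transcription factors, RNA-binding proteins and factors of ribosome biology.

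By a profile search of the annotated proteins, 83 members had a KRAB box and 82 had none. The members had a median of 9 C2H2 fingers and at most 31. The KRAB members had a median of 12 fingers and those without the box 6.5. A SCAN domain, which pairs these proteins with each other, was found in 11 members, 6 of which also had a KRAB box. Chromosome 19 held 63 members, 38.2% of them, against 7.39% of all protein-coding genes, and 46 of the 63 had a KRAB box. Chromosome 7 held 17 and chromosome 16 held 10. Among all 510 numbered ZNF genes the KRAB share was 65.9% of the 508 with an annotated protein, against 50.3% of the members.

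RefSeq promoters (GRCh38.p14, 250 bases before the start and 50 after it) matched 143 members by symbol, and 4 are printed for members with large or shared changes. They were searched on both strands for CACGTG, the E-box bound by MYC and MAX, for CCGGAAG, the core of ETS factor sites, and for TATAAA, and matches are in capitals.
ZNF121 (chr19:9584455-9584754, minus strand): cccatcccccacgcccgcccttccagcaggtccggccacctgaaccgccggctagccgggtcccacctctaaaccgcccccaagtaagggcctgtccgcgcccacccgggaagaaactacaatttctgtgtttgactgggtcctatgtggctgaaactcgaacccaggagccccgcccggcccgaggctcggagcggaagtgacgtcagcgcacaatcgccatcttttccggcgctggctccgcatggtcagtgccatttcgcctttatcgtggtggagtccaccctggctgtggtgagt
ZNF141 (chr4:337564-337863, plus strand): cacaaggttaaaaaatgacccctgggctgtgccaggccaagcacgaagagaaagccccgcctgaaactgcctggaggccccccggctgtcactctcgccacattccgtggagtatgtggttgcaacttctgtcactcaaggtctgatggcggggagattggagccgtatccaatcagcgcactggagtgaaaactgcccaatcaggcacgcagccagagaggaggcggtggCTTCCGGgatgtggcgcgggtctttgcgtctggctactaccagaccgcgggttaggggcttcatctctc
ZNF865 (chr19:55605397-55605696, plus strand): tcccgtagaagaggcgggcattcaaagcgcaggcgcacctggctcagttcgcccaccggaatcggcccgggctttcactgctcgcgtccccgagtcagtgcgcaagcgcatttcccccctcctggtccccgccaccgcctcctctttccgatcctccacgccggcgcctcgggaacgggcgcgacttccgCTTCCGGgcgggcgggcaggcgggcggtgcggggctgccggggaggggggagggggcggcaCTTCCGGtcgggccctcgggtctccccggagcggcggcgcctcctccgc
ZNF593 (chr1:26169658-26169957, plus strand): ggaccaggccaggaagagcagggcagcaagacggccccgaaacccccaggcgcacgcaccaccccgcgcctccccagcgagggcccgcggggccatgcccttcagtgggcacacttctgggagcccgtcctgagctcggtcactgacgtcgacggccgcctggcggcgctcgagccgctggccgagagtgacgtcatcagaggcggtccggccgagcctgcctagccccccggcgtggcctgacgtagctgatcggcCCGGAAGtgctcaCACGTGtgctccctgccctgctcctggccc
The ZNF121 window held none of the 3 motifs, ZNF141 held 1 ETS match, ZNF865 held 2, and ZNF593 held 1 ETS match and 1 E-box. Over the 143 members the ETS letters stood in 44.8% of promoters, against 37.6% of the 282 promoters of numbered ZNF genes below 300, 23.8% of the 5786 promoters of genes at 300 or more and 10.7% of all 27305 promoters. They stood in 50% of the 70 KRAB promoters and in 39.7% of the 73 others. The E-box stood in 9.09% of member promoters, against 11.6% of those of genes at 300 or more and 7.43% of all. TATAAA stood in 2.8% of member promoters and in 12% of all. These matches describe the letters in the windows and were not tested as sites.

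The 10 highest levels in 72 h controls, on the deposited normalized scale (SD, n = 5), ran from ZNF207 to ZNF592. ZNF207, a kinetochore and spindle protein that binds BUB3, stood at 3506 ± 286. ZNF106, an RNA-binding protein, stood at 3326 ± 217, and ZNF532, a partner of ZNF592 and ZNF687 in a complex with ZMYND8, at 3274 ± 432. ZNF146 at 2912 ± 304, ZNF121 at 2598 ± 149, ZNF664 at 2307 ± 447 and ZNF318 at 2211 ± 78.3 came next. ZNF598, a ubiquitin ligase that marks collided ribosomes, stood at 1920 ± 164, ZNF395 at 1821 ± 110 and ZNF592 at 1783 ± 226. Neighbours in this order overlapped within 1 SD, with the exception of ZNF318 and ZNF598. Divided by transcript length in kilobases, ZNF207 was first at 1840, ahead of ZNF580 at 796, ZNF146 at 770, ZNF598 at 570, ZNF532 at 489, ZNF266 at 488, ZNF787 at 473, ZNF593 at 459, ZNF106 at 453 and ZNF664 at 452. Of these 14 genes, ZNF266 was the only KRAB gene. The median member stood at 538, 67 members at 600 or more and 31 at 1000 or more. The median coefficient of variation between the 5 controls was 10.7%.

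Members took a smaller part of the signal in the PNA2 libraries of 72 h. They held 0.767% to 0.967% of the summed values in PNA2 libraries and 1.07% to 1.11% in controls, so the groups did not overlap, though these controls also chose the members. At 48 h the shares were 0.745% to 0.869% in PNA2, 0.837% to 0.858% in siRNA and 0.784% to 0.890% in control libraries, and all 3 groups overlapped. In bulk RNA, fewer cells that express a gene and less of its RNA per cell cannot be told apart. As a check of the labels, MYC was lower in siRNA than in control libraries (log2 change -0.81, SE 0.11, limma adjusted p = 0.000318). It was not called in PNA2 libraries at 48 h (0.24, SE 0.09, limma adjusted p = 0.096) or at 72 h (-0.18, SE 0.45, limma adjusted p = 0.794), so PNA2 comparisons below are between libraries as labelled. All 7 B-cell markers were expressed, with sums of 28100 to 33600 in PNA2 and 23200 to 25200 in control libraries at 72 h. T, NK, myeloid and erythroid markers summed to at most 45 in any library, and the 5 stromal and epithelial markers to 93.3 to 154 in PNA2 and 104 to 136 in control libraries at 72 h. At 48 h the B-cell sums were 26700 to 44000 in PNA2, 43100 to 45300 in siRNA and 36000 to 39500 in control libraries, and the stromal and epithelial sums 196 to 408, 248 to 272 and 171 to 257. The part of these levels in the results below was not tested.

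At 72 h the question was how the ZNF genes differed between PNA2 and PBS. In limma fits of log2(value + 1) over all genes, called at a Benjamini-Hochberg adjusted p below 0.05, 50 of 165 members (30.3%) were lower in PNA2 libraries and 11 (6.67%) were higher. Of all 11985 genes tested, 11.7% were called lower and 12.1% higher, and of the 7101 genes at 300 or more in the same controls 14.4% and 14.8%. The median log2 change was -0.26 over members, with 120 below 0 and 45 above, and -0.01 over genes at 300 or more. Because the same controls chose the members, a gene whose controls happened to be high was more likely to enter, and nothing is read from these counts alone. Membership by the mean over all 10 libraries gave 47 lower and 13 higher of 158, with a median of -0.24, and membership by the 48 h controls gave 37 lower and 9 higher of 134, with a median of -0.23. In 39 members every PNA2 library was below every control, and in 8 every one was above, against 9.18% and 10% of all genes tested. The higher calls numbered 6, 4, 4 and 7 without control replicate 1, 3, 4 or 5, and 6, 5 and 7 without PNA2 replicate 1, 2 or 3.

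ZNF121, a protein reported to bind MYC in epithelial cells, was the called member with the largest fall. Its gene lies at bases 9560353 to 9584533 of chromosome 19 (GRCh38, minus strand) and encodes 9 C2H2 fingers without a KRAB box. The 5 PNA2 libraries had 983, 1144, 1012, 1231 and 1197, and the 5 controls 2753, 2365, 2620, 2691 and 2558. Every PNA2 library was far below every control, with a log2 change of -1.23 (SE 0.08, limma adjusted p = 1.53e-05).

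The next 4 falls were in ZNF267, ZNF594, ZNF141 and ZNF83, of which all but ZNF594 carry a KRAB box. ZNF267 had 297, 240, 222, 264 and 96.3 in PNA2 libraries and 490, 359, 382, 507 and 438 in controls (log2 change -1.04, SE 0.26, limma adjusted p = 0.0146). ZNF594 had 140, 154, 137, 197 and 247 in PNA2 libraries and 358, 319, 350, 359 and 345 in controls (-1.02, SE 0.15, limma adjusted p = 0.00154). In both genes the groups did not overlap, with PNA2 replicate 5 the lowest for ZNF267 and the highest for ZNF594. ZNF141 had 302, 352, 196, 394 and 421 in PNA2 libraries and 622, 599, 620, 659 and 660 in controls (-0.97, SE 0.17, limma adjusted p = 0.00321). ZNF83 had 364, 479, 443, 569 and 585 in PNA2 libraries and 1004, 721, 1098, 798 and 941 in controls (-0.91, SE 0.15, limma adjusted p = 0.0022). Both again fell in every library, and PNA2 replicate 3 was the lowest for ZNF141.

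ZNF292, a large factor recurrently mutated in chronic lymphocytic leukaemia, averaged 579 ± 243 in PNA2 libraries and 1005 ± 142 in controls (SD, n = 5 each; log2 change -0.89, SE 0.26, limma adjusted p = 0.0274). ZNF37A averaged 501 ± 152 and ZNF92 233 ± 44.5 in PNA2 libraries, against 822 ± 143 and 385 ± 44.4 in controls (-0.75 and -0.74). The ZNF292 groups overlapped at PNA2 replicate 4 and the ZNF37A groups at replicates 4 and 5, while ZNF92 was lower in every library. The call was lost without any of 4 single libraries for ZNF292 and of 3 for ZNF37A, with control replicates 1 and 4 among them for both. After an adjustment for GC content and length, described below, the changes were -0.52 for ZNF292 and -0.41 for ZNF37A, and that of ZNF267 was -0.79 and no longer called (limma adjusted p = 0.0654). ZNF607 and ZNF778 had mean differences of -1.32 and -1.09 on the log2 scale but were not called (limma adjusted p = 0.294 and 0.141). ZNF607, at 414, 407, 388, 9.62 and 495 in PNA2 libraries and 490, 500, 525.6, 511 and 510 in controls, had 1 PNA2 library, replicate 4, far below the rest. ZNF778 also varied, with 240, 37.2, 108, 333 and 355 in PNA2 libraries and 308 to 420 in controls.

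**Figure D1:**
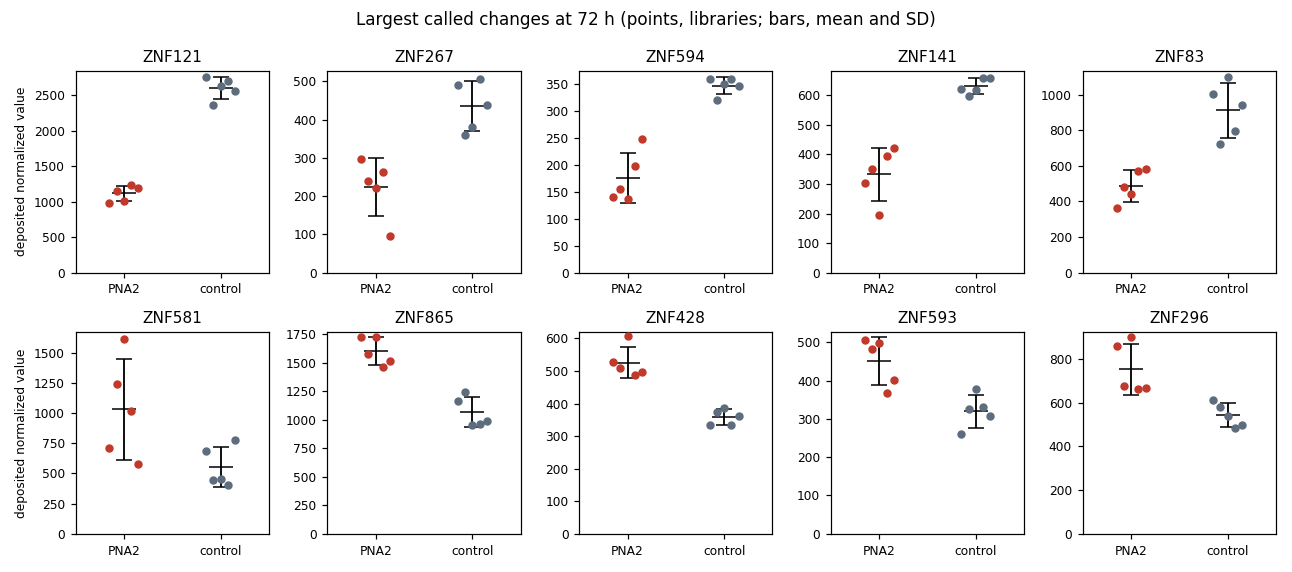
Deposited normalized values (y axes, from 0) of the 5 members with the largest called falls and the 5 with the largest called rises at 72 h, with PNA2 libraries left of controls. Points are libraries and bars are mean and SD (n = 5 each); the ZNF121 points lie at 983 to 1231 in PNA2 libraries and 2365 to 2753 in controls, and the ZNF581 and ZNF593 groups overlap.

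Of the 11 members that rose, 9 had no KRAB box and 10 had a transcript GC content of 50% or more, the exception being ZNF521. ZNF865, with 20 fingers, had 1732, 1578, 1724, 1464 and 1518 in PNA2 libraries and 1170, 1246, 956, 965 and 994 in controls (log2 change 0.59, SE 0.09, limma adjusted p = 0.00174). ZNF428 had 527, 510, 606, 487 and 497 in PNA2 libraries and 333, 375, 387, 333 and 361 in controls (0.55, SE 0.09, limma adjusted p = 0.00177). Each rose in every library. ZNF296 averaged 754 ± 118 in PNA2 libraries and 544 ± 54.0 in controls (0.46, SE 0.11, limma adjusted p = 0.0132), again without overlap. ZNF593, whose yeast counterpart Bud20 helps export the large ribosomal subunit, averaged 451 ± 62.9 in PNA2 libraries and 320 ± 42.9 in controls (0.49, SE 0.12, limma adjusted p = 0.0149). After the adjustment for GC content and length the changes were 0.30 for ZNF296, 0.26 for ZNF428 and 0.17 for ZNF593, which was then no longer called (limma adjusted p = 0.217). The largest rise, in ZNF581, was the least even, with 711, 1242, 1611, 1014 and 575 in PNA2 libraries and 690, 448, 456, 404 and 778 in controls (0.84, SE 0.28, limma adjusted p = 0.0447). Its groups overlapped, and its call was lost when any of 7 single libraries was left out and after the adjustment for GC content and length (0.63, limma adjusted p = 0.094). ZNF362 (0.39), ZNF574 (0.31) and ZNF282 (0.28) followed, and the other 3, ZNF768, ZNF521 and ZNF746, each rose by 0.26. The calls of ZNF574 and ZNF282 were lost without any of control replicates 1, 3, 4 and 5 or PNA2 replicates 1, 2 and 3. Exons of ZNF292, ZNF428 and ZNF593 overlap genes on the other strand and those of ZNF37A and ZNF296 a gene on the same strand, so the source of their reads is uncertain.

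Of the 83 KRAB members, 33 were called lower and 2 higher at 72 h, with a median log2 change of -0.38 and 70 below 0. Of the 82 without the box, 17 were called lower and 9 higher, with a median of -0.13. On chromosome 19, the 46 KRAB members had 18 lower and 0 higher (median -0.41), and the 17 others had 2 lower and 5 higher (median 0.21). Elsewhere the 37 KRAB members had 15 lower and 2 higher, and the 65 others 15 lower and 4 higher. Of all genes tested 11.7% were lower and 12.1% higher, and of those at 300 or more 14.4% and 14.8%. The 17 others on chromosome 19 are too few for their counts to be read. The median over KRAB members, set against the mean of the controls, was -0.42, -0.44, -0.56, -0.24 and -0.17 in the 5 PNA2 libraries and -0.01 to 0.04 in the 5 controls. Over the others it was -0.04, -0.09, -0.17, 0.02 and -0.08 in PNA2 libraries and -0.03 to 0.06 in controls. The KRAB medians lay below those of the controls in every PNA2 library, with replicate 3 lowest and replicates 4 and 5 nearest. The same controls chose the members and set the zero of these medians, so nothing is read from this gap alone. The KRAB split was not repeated with membership by the 48 h controls.

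**Figure D2:**
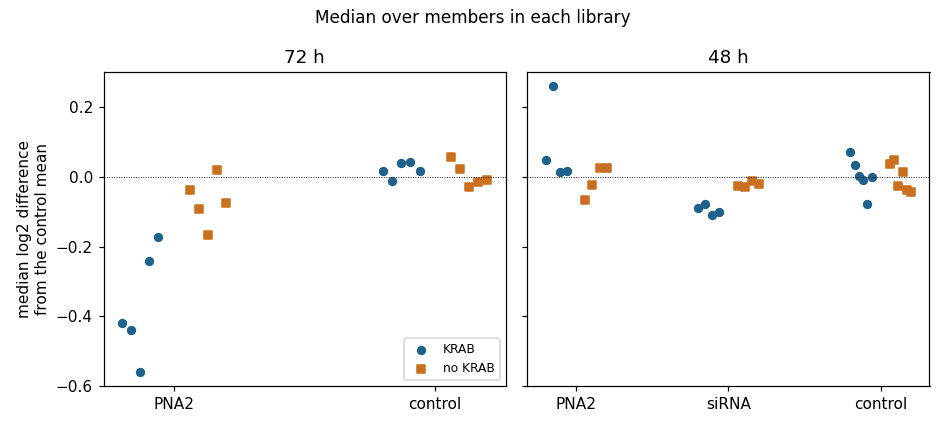
Median over members of the log2 difference from the control mean (y axis) in each library at 72 h and 48 h, for 83 KRAB members (circles) and the others (squares). At 72 h the KRAB medians of the 5 PNA2 libraries lie between -0.56 and -0.17, and at 48 h PNA2 replicate 2 stands alone at 0.26.

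The change at 72 h also moved with the composition of the transcript. Across 165 members the Spearman correlation of the log2 change with transcript GC content was 0.61 and with transcript length -0.25, and across the 7100 genes at 300 or more with an annotation 0.39 and -0.48. Genes share libraries and depth, so these are descriptions. Among transcripts below 40% GC, the 18 KRAB members had a median of -0.55, the 13 others -0.38 and the 943 genes at 300 or more -0.29. From 40% to 45% GC the medians were -0.38 for 36 KRAB members, -0.23 for 20 others and -0.12 for 1539 genes, and from 45% to 50% they were -0.35 for 16, -0.12 for 12 and 0.02 for 1222. At 50% GC or more they were -0.16 for 13 KRAB members, 0.07 for 37 others and 0.10 for 3396 genes. KRAB members had a median transcript GC content of 42.8% and the others 47.9%, and within each GC range the KRAB median change was the lower. The same 72 h controls chose the members, and several ranges hold few of them. The median log2 level in these controls was 8.85 to 8.92 for KRAB members and 9.37 to 9.50 for the others. KRAB members thus lay nearer the limit, and nothing particular to the KRAB box is read from these gaps. With GC content and length fitted out of every library, an adjustment chosen after the data were seen, 35 members were lower and 10 higher with a median of -0.14. Of these, 22 lower and 2 higher were KRAB genes (median -0.23), and 13 lower and 8 higher were others (median -0.04). In the same fit 1416 of all 11981 genes were called lower and 1351 higher. The part of GC content and length in the changes was not tested further.

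**Figure D3:**
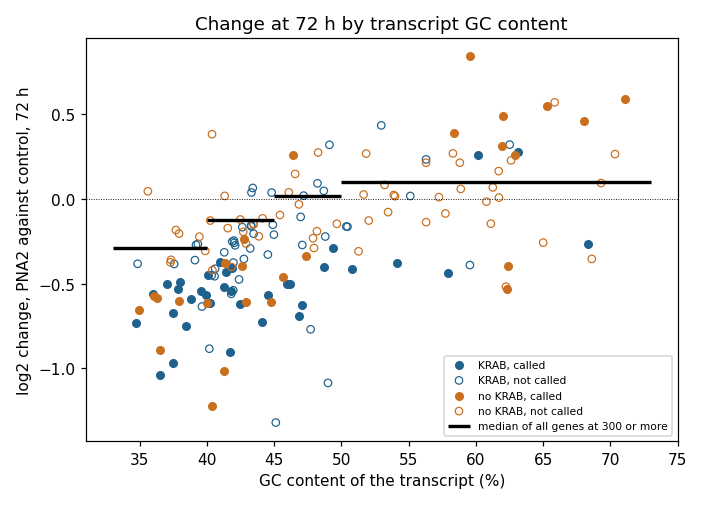
Log2 change between PNA2 and control libraries at 72 h (y axis) against the GC content of the transcript in % (x axis) for 165 members, filled where called, with KRAB genes in blue and others in orange. Black lines are medians of all genes at 300 or more in 4 GC ranges, from -0.29 below 40% to 0.10 at 50% or more; KRAB points lie mostly below the lines.

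Members with a listed role of their own were followed singly at 72 h. Of the 24 that were listed, 5 were lower and 1, ZNF593, was higher, beside the 14.4% lower and 14.8% higher of genes at 300 or more. ZNF274, a KRAB protein that binds the 3' ends of ZNF genes themselves and brings SETDB1 there, averaged 741 ± 49.1 in PNA2 libraries and 987 ± 51.9 in controls, without overlap (log2 change -0.41, SE 0.07, limma adjusted p = 0.00266). ZNF91, which represses SVA and LINE-1 elements, averaged 468 ± 72.9 in PNA2 libraries and 660 ± 70.6 in controls (-0.50, SE 0.12, limma adjusted p = 0.0106), but after the adjustment for GC content and length its change was -0.17 and no longer called (limma adjusted p = 0.115). ZNF326, a splicing-linked partner of RNA polymerase II in the DBIRD complex, fell by 0.62 and ZNF532 by 0.46 on the log2 scale, beside ZNF292 above. The ZNF532 call was lost without any of control replicates 1, 2, 3 and 5 or PNA2 replicates 2, 3 and 4, and after the adjustment for GC content and length (-0.32, limma adjusted p = 0.115). ZNF207 (0.04), ZNF598 (-0.26), ZNF217, a breast cancer oncogene (-0.15), ZNF384, rearranged in B-cell leukaemia (0.02), and ZNF318, which governs IgD splicing in mouse B cells (-0.19), did not pass. The TRIM28 pathway, a list of 19 genes, had 4 lower and 0 higher. These were CBX3 (-0.47) and CBX5 (-0.42), both HP1 proteins, MPHOSPH8 of the HUSH silencing complex (-0.49) and the remodeller SMARCAD1 (-0.81). TRIM28 itself averaged 7940 ± 880 in PNA2 libraries and 6790 ± 450 in controls (0.22, SE 0.08, limma adjusted p = 0.0656), and SETDB1 787 ± 31.2 and 817 ± 76.3 (-0.05). Other zinc finger families had 7 lower and 1 higher of 39 for ZBTB genes, 1 and 0 of 16 for ZSCAN, 1 and 0 of 7 for ZKSCAN, 3 and 2 of 15 for ZFP, 0 and 1 of 12 for KLF and 0 and 0 of 8 for SP. Of all genes tested 11.7% were lower and 12.1% higher, and nothing particular to the TRIM28 list or to these families is read from their counts. The 280 tested numbered ZNF genes below 300 had 27 lower and 10 higher, with a median of -0.15.

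At 48 h PNA2 libraries differed from controls in few members and in no common direction. Of 164 tested, 13 (7.93%) were higher and 12 (7.32%) lower, against 8.11% and 8.58% of all 14136 genes tested and 8.8% and 12.6% of the 7023 at 300 or more in 72 h controls. The median log2 change of members was 0.02. These values come from a table that was adjusted per batch and scaled here, and fold changes carry a batch term. Without rescaling, which moved the median of all genes to 0.19, the counts were 27 higher and 0 lower with a median of 0.22. Within batch A there were 8 higher and 8 lower, and within batch B 6 and 3. Without PNA2 replicate 2, which stood apart in several ZNF genes, there were 9 higher and 12 lower. There were 21 higher without PNA2 replicate 1, 8 higher and 7 lower without PNA2 replicate 4, and 8 higher without control replicate 4. Groups did not overlap in 6 members with PNA2 higher and in 5 with PNA2 lower, against 5.23% and 4.99% of all genes. The 268 tested numbered ZNF genes below 300 had 27 higher and 4 lower (median 0.18). Without PNA2 replicate 2 these genes had 11 higher and 4 lower (median 0.11).

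ZNF362 and ZNF521 rose most. ZNF362 had 161, 224, 237 and 275 in PNA2 libraries, against 106, 127 and 147 as the lowest, median and highest of 6 controls (log2 change 0.82, SE 0.12, limma adjusted p = 0.000654). ZNF521, a large factor of early blood progenitors that binds the B-cell factor EBF1, had 379, 396, 440 and 458 in PNA2 libraries, against 225, 248 and 295 (0.71, SE 0.09, limma adjusted p = 0.000303). Neither overlapped with the controls, both kept their calls in every alternative run, and both also rose at 72 h, where the ZNF362 call was lost without any of 6 single libraries. ZNF197 followed with 73.4, 109, 88.8 and 82.3 in PNA2 libraries, against 48.7, 58.6 and 62.5 (0.60, SE 0.14, limma adjusted p = 0.00978). ZNF850 (0.55), ZNF260 (0.55), ZNF529 (0.49), ZNF426 (0.38) and ZNF532 (0.37) came next, and ZNF91 rose by 0.31 and ZNF217 by 0.28. In ZNF850, PNA2 replicate 2 held 323 where the others held 175 to 185, and without it the difference was 0.36 (limma adjusted p = 0.0707). The ZNF426 call was lost without PNA2 replicate 2 (0.24, limma adjusted p = 0.0622) and also without control replicate 1 or 4 or PNA2 replicate 4. That of ZNF532 was lost without PNA2 replicate 3 (0.36, limma adjusted p = 0.0634) or 4 (0.35, limma adjusted p = 0.0646), and that of ZNF91 within either batch (0.35 and 0.28, limma adjusted p = 0.125 and 0.141).

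The 12 called falls at 48 h ran from -0.41 to -0.19 on the log2 scale. ZNF276 had 693, 682, 623 and 567 in PNA2 libraries, against 725, 850 and 1090 in controls (log2 change -0.41, SE 0.10, limma adjusted p = 0.0118), and its exons overlap FANCA on the other strand, so the source of its reads is uncertain. ZNF121 had 1287, 1367, 1061 and 1057, against 1252, 1558 and 1830 (-0.36, SE 0.09, limma adjusted p = 0.0163), with an overlap of the groups. Its call was lost without PNA2 replicate 3 (limma adjusted p = 0.0517) or replicate 4 (0.0521), and within either batch. ZNF101 (-0.40), ZNF778 (-0.39), ZNF385B (-0.37), ZNF316 (-0.32), ZNF107 (-0.32) and ZNF296 (-0.30) also fell, as did the most abundant member, ZNF207, by 0.20 on the log2 scale, which without rescaling was 0.0036. Of the TRIM28 pathway list, ATF7IP, the partner of SETDB1 (0.20), and ATF7IP2 (0.40) were higher, while CBX1, an HP1 protein (-0.25), the DNA methyltransferase DNMT1 (-0.365) and MORC2 (-0.25) were lower. Without PNA2 replicate 2 this list had 1 higher and 3 lower. The KRAB members had 7 higher and 5 lower and a median of 0.08, the others 6 and 7 and a median of -0.03. Of all genes tested 8.11% were higher and 8.58% lower, and nothing is read from these counts. Without PNA2 replicate 2 the KRAB counts were 4 higher and 6 lower with a median of 0.02.

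The PNA2 changes of the 2 times share no library and can be set side by side. Across 164 members their Pearson correlation was 0.14 and their Spearman correlation 0.06, and 81 had the same sign. Of the members lower at 72 h, 4 were lower at 48 h, which is 8% of the 50 and 33.3% of the 12. Those 4 were ZNF121, ZNF276, ZNF316 and ZNF326. Another 4, ZNF529, ZNF532, ZNF850 and ZNF91, were lower at 72 h but higher at 48 h, 8% of the 50 and 30.8% of the 13. Among the 7023 genes at 300 or more, 305 were lower at both times (29.8% of 1022 and 34.6% of 882), and 11 were lower at 72 h and higher at 48 h (1.08% of 1022 and 1.78% of those higher at 48 h). Of all 165 members 30.3% were lower at 72 h, against 14.4% of genes at 300 or more. The member shares of 33.3% and 30.8% lie near that 30.3%, so neither agreement nor reversal is read from them. ZNF362 and ZNF521 were higher at both times, and ZNF296 was higher at 72 h and lower at 48 h. The 48 h call of ZNF296 was lost in 14 of 21 alternatives, 6 of which left out 1 library, and without PNA2 replicate 2 its change was -0.20 (limma adjusted p = 0.0797). Since the tables were normalized separately, the difference between the times was not tested.

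Under MYC siRNA at 48 h more members were lower than higher. Of 164, 22 (13.4%) were called lower and 5 (3.05%) higher, against 8.13% and 9.3% of all genes tested and 11.7% and 9.5% of those at 300 or more. The lower share of 13.4% lies near that 11.7%, so nothing particular to the members is read from the lower count. The median log2 change was -0.11 with 116 below 0. All siRNA libraries are in batch A, and within that batch 17 were lower and 6 higher with a median of -0.10. Without rescaling, which moved the median of all genes to 0.22, the members' median was 0.12 with 2 lower and 11 higher, so the direction is relative to the other genes. Without control replicate 2 the lower calls were 10, and without siRNA replicate 1, 2 or 4 they were 13, 13 and 11. In 19 members all siRNA libraries were below all controls and in 5 all were above, against 6.89% and 8.72% of all genes.

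ZNF850, a KRAB gene with 29 fingers, fell most under siRNA. It had 106, 82.8, 71.6 and 80.5 in siRNA libraries, against 125, 143 and 158 as the lowest, median and highest of the controls (log2 change -0.86, SE 0.17, limma adjusted p = 0.00438). ZNF276 had 506, 541, 567 and 532, against 725, 850 and 1090 (-0.72, SE 0.11, limma adjusted p = 0.000823). ZNF121 had 1043, 1135, 1047 and 1082, against 1252, 1558 and 1830 (-0.59, SE 0.10, limma adjusted p = 0.00186), and within batch A its change was -0.54 (limma adjusted p = 0.00645). In each of these 3 genes every siRNA library was below every control. ZNF607 (-0.64), ZNF594 (-0.56), ZNF529 (-0.55), ZNF385B (-0.55) and ZNF621 (-0.51) completed the 8 largest falls. The ZNF594 call was lost in 13 of 20 alternatives and that of ZNF621 in 10 of 20, among them leaving out control replicate 2 or siRNA replicate 1, 2, 3 or 4 for both. Among members tied to ribosomes, ZNF598 (-0.40) and ZNF593 (-0.45) were lower, whereas ZNF622, a maturation factor of the large subunit, did not pass (-0.14). The PNA2 and siRNA comparisons at 48 h share their controls.

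The 5 members that rose under siRNA all lacked a KRAB box. ZNF106 had 6835, 7815, 7046 and 7670 in siRNA libraries, against 3864, 4963 and 5556 in controls (log2 change 0.87, SE 0.09, limma adjusted p = 8.19e-05). ZNF608 had 1664, 1812, 1757 and 1782, against 1100, 1312 and 1424 (0.62, SE 0.11, limma adjusted p = 0.00171). ZNF654 had 1643, 1699, 1574 and 1597, against 1045, 1193 and 1484 (0.50, SE 0.08, limma adjusted p = 0.000985). ZNF318 had 1648, 1619, 1528 and 1658, against 1124, 1206 and 1420 (0.49, SE 0.10, limma adjusted p = 0.0057). In all 4 every siRNA library was above every control, and their calls held within batch A, with 0.81 for ZNF106, 0.55 for ZNF608, 0.54 for ZNF654 and 0.40 for ZNF318. Exons of ZNF654 overlap CGGBP1 on the other strand, so the source of its reads is uncertain. ZNF395, a factor induced by hypoxia, rose by 0.34 on the log2 scale (limma adjusted p = 0.0139), and within batch A its change was 0.29 (limma adjusted p = 0.0503).

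KRAB members had 10 lower and 0 higher calls under siRNA, with a median log2 change of -0.16 and 69 of 83 below 0. The others had 12 lower and 5 higher, with a median of -0.04. Of all genes tested 8.13% were lower and 9.3% higher, and of those at 300 or more 11.7% and 9.5%. Nothing particular to KRAB members is read from the lower counts. Set against the control mean, the KRAB median of the 4 siRNA libraries was -0.09, -0.08, -0.11 and -0.10, against -0.08 to 0.07 in controls. Of the TRIM28 pathway list, FAM208A (TASOR) of the HUSH complex was higher (0.28), and HDAC2 (-0.25) and MORC2 (-0.34) were lower. The 268 tested numbered ZNF genes below 300 had 28 lower and 3 higher (median -0.14). Between siRNA at 48 h and PNA2 at 72 h, which share no library, 13 members were lower in both, 26% of the 50 and 59.1% of the 22. Among genes at 300 or more the shares were 13.9% of 1022 and 17.2% of 825. The rates at 72 h also differed, with 30.3% of members lower against 14.4% of those genes. ZNF594 and ZNF621 are among these 13. No member was higher in both. ZNF608 and ZNF654 were lower under PNA2 at 72 h and higher under siRNA, 4% of the 50 and 40% of the 5, against 5.58% of 1022 and 8.55% of 667 among genes at 300 or more. The 72 h call of ZNF608 was lost without any of control replicates 1, 2, 3 and 5 or PNA2 replicate 5, and that of ZNF654 without any of control replicates 1, 3, 4 and 5 or PNA2 replicates 1 and 2. ZNF574 and ZNF593 were higher under PNA2 at 72 h and lower under siRNA, 18.2% of the 11 and 9.09% of the 22, against 14.9% and 18.5% among genes at 300 or more.

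**Figure D4:**
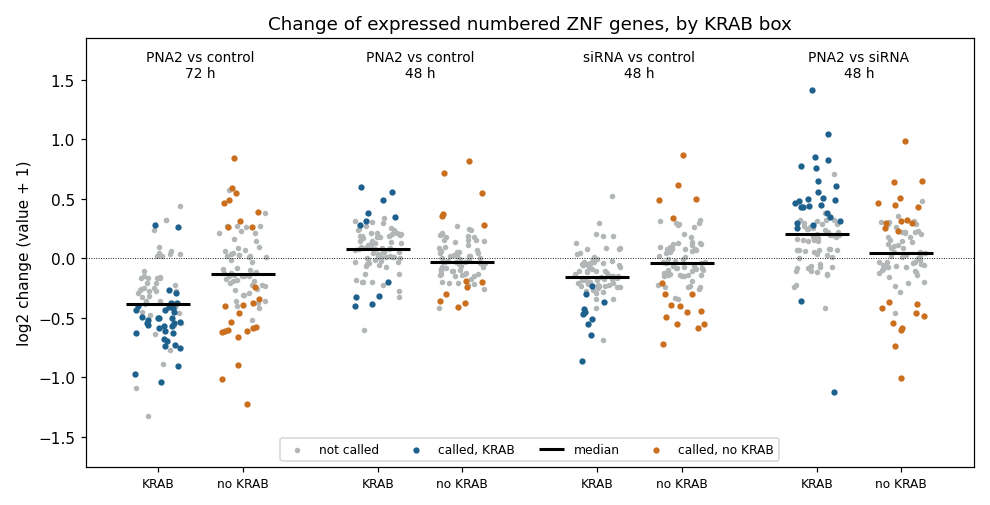
Log2 change (y axis) of each member in the 4 comparisons, with KRAB genes left of the others, called members coloured and medians as black lines. The KRAB medians are -0.38 for PNA2 at 72 h, 0.08 for PNA2 at 48 h, -0.16 for siRNA and 0.21 for PNA2 against siRNA.

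PNA2 and siRNA libraries, compared directly at 48 h, differed in 49 members. PNA2 libraries were higher in 37 (22.6%) and lower in 12 (7.32%), against 11.5% and 12.4% of all genes tested and 13.8% and 14.9% of those at 300 or more. The median log2 change of members was 0.15. Within batch A there were 37 higher and 18 lower, and without PNA2 replicate 2 there were 31 and 9 with a median of 0.10. Groups did not overlap in 41 members with PNA2 higher and in 14 with PNA2 lower, against 13.6% and 14.2% of all genes. KRAB members had 24 higher and 2 lower (median 0.21), and the others 13 and 10 (median 0.04). The 268 tested numbered ZNF genes below 300 had 68 higher and 3 lower (median 0.275). Without PNA2 replicate 2 these genes had 46 and 7 (median 0.21). The excess of higher calls is therefore not particular to the members. The labels give electroporation for siRNA alone, so the agent and its delivery cannot be told apart.

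ZNF850 had 185, 323, 180 and 175 in PNA2 libraries, against 106, 82.8, 71.6 and 80.5 in siRNA libraries (log2 change 1.42, SE 0.19, limma adjusted p = 0.00011). ZNF529 had 411, 584, 371 and 463, against 240, 241, 235 and 226 (1.05, SE 0.14, limma adjusted p = 9.34e-05). ZNF260 had 573, 863, 637 and 659, against 413, 383, 330 and 341 (0.98, SE 0.14, limma adjusted p = 0.000162). Every PNA2 library was above every siRNA library in these genes, and they lie close together on chromosome 19. ZNF607 (0.85), ZNF426 (0.83), ZNF197 (0.78), ZNF585B (0.75) and ZNF146 (0.65) followed. Without PNA2 replicate 2 the ZNF585B change was 0.47 (limma adjusted p = 0.04). ZNF106 had 3743, 3146, 5547 and 5601 in PNA2 libraries, against 6835, 7815, 7046 and 7670 in siRNA libraries (-1.003, SE 0.09, limma adjusted p = 6.73e-06). The 2 low PNA2 values are those of batch A, the batch of all siRNA libraries, where the change was -1.09. ZNF215 had 564, 169, 527 and 542, against 813, 791, 694 and 793 (-1.13, SE 0.27, limma adjusted p = 0.00724), with PNA2 replicate 2 far below the rest, and without it the change was -0.56 (limma adjusted p = 0.00025). ZNF608 (-0.74), ZNF654 (-0.60), ZNF318 (-0.59), ZNF710 (-0.54), ZNF518A (-0.48) and ZNF367 (-0.46) were the other largest falls. Without PNA2 replicate 2 the last 3 were no longer called, at -0.36 for ZNF710, -0.37 for ZNF518A and -0.25 for ZNF367 (limma adjusted p = 0.0817, 0.0565 and 0.0575).

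Neighbouring members were described as runs. Of 8 runs of at least 4 members with gaps of at most 500 kb, the run of 6 from 36214602 to 37719790 on chromosome 19 (ZNF146, ZNF260, ZNF529, ZNF850, ZNF585B and ZNF607) changed most at 48 h. All 6 were higher in PNA2 than in siRNA libraries (median 0.92), also without PNA2 replicate 2 (median 0.84). Against controls, 5 were lower under siRNA (median -0.52) and 3 were higher under PNA2 at 48 h (median 0.42), or 2 without PNA2 replicate 2, and at 72 h 3 were lower (median -0.39). Of all genes tested, 11.5% were higher in PNA2 than in siRNA libraries, 8.13% lower under siRNA and 8.11% higher under PNA2 at 48 h. At 72 h 11.7% were lower. The run was singled out by these same changes, so nothing is read from its counts alone. ZNF146 had 2402, 2295, 2121 and 2241 in siRNA libraries, against 2448, 3127 and 3452 in controls (-0.49, SE 0.10, limma adjusted p = 0.00558). Exons of ZNF529, ZNF260 and ZNF146 overlap genes on the other strand and those of ZNF607 and ZNF585B a gene on the same strand, so the source of their reads is uncertain. Recent duplicates share sequence, and reads may have been split between them.

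**Figure D5:**
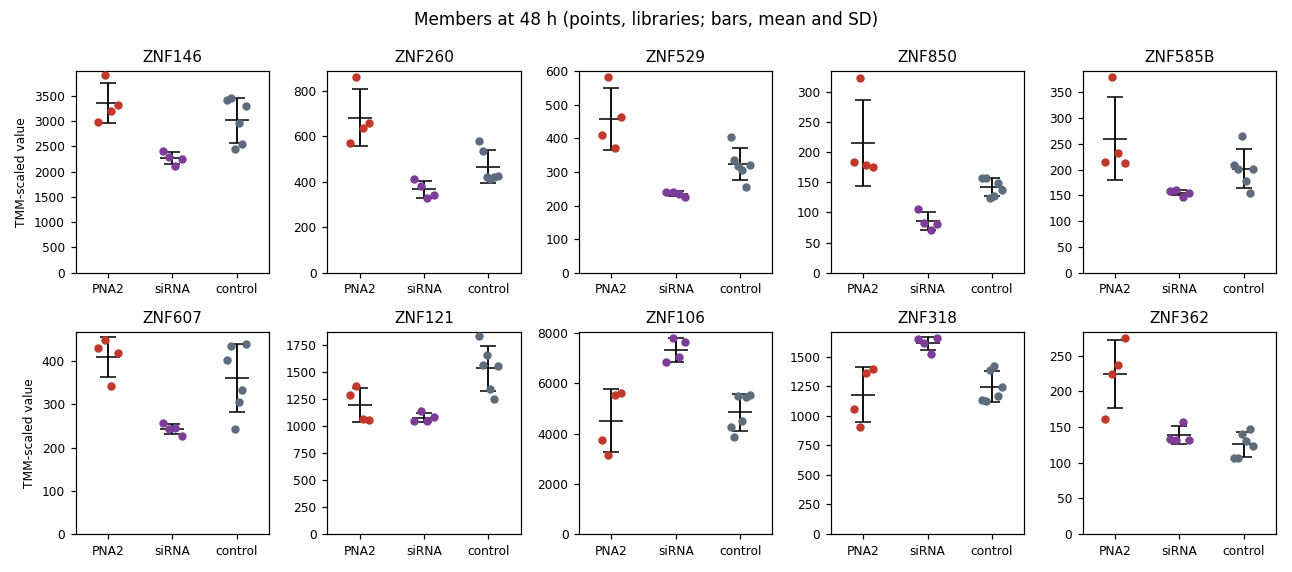
TMM-scaled 48 h values (y axes, from 0) of the 6 neighbouring members of the chromosome 19 run and of ZNF121, ZNF106, ZNF318 and ZNF362, with PNA2, siRNA and control libraries from left to right; points are libraries and bars mean and SD (n = 4, 4 and 6). In all 6 neighbours every PNA2 point lies above every siRNA point, and PNA2 replicate 2 is the highest point in each.

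Positions are on GRCh38, and the other runs are given mainly by their 72 h changes. The 15 KRAB members from 52012765 to 53580269 on chromosome 19, among them ZNF83, ZNF432, ZNF600 and ZNF331, had 8 lower and 0 higher in PNA2 libraries (median log2 change -0.45). At 48 h they had 2 higher and 0 lower under PNA2 (median 0.19) and no call under siRNA (median -0.11). The 6 members from 55576770 to 56160893, ZNF579, ZNF865, ZNF580, ZNF581, ZNF787 and ZNF444, have no KRAB box and had 2 higher and 0 lower at 72 h (median 0.42). The 7 members from 9140380 to 9675086, which include ZNF121, had 2 lower (median -0.27), and the 13 from 57351307 to 58475436, which include ZNF274, had 4 lower (median -0.15). On chromosome 7 the 6 KRAB members from 149126416 to 149497817 had 2 higher, ZNF282 and ZNF746, and 2 lower, ZNF398 and ZNF783 (median 0.14). Of all genes tested, 11.7% were lower and 12.1% higher at 72 h. Under PNA2 at 48 h 8.11% were higher and 8.58% lower. These runs hold few members, and nothing particular to any of them is read from its counts. After the adjustment for GC content and length the medians at 72 h were -0.24 for the run of 15 KRAB members, 0.31 for the run without KRAB boxes and -0.19 for the run around ZNF850.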

How the data were processed

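U2932 libraries were made from total RNA with a stranded kit and sequenced on a NextSeq 500, per the labels' protocols. The submitters' processing notes name Trimmomatic, HISAT2 2.2.1, SAMtools 1.7, HTSeq 0.11.0, DESeq2 and GRCh38; whether counting used strand is not given in the sources used here.

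The deposited 72 h values are a normalized signal, counts divided by a size factor. Whole reads were recovered from 100% of values within 0.01 of a whole number, giving 11.3 M to 13.7 M reads in PNA2 and 8.22 M to 13.3 M reads in control libraries. The deposited 48 h values are a batch-adjusted score on a count scale, down to -224, with 21877 of 61541 genes not whole, so the depth is unknown there. Of 6670 low genes, 25.9% to 40.9% tied within and 0% between 2 batches, from which the batches were read. Batch A held controls 1, 2 and 4, PNA2 1 and 2 and all siRNA libraries, and batch B the rest. The 2 control columns without a number were used as controls of their group.

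Genes at 10 or more in at least 5 (72 h) or 4 (48 h) libraries were tested in limma 3.58.1 (R 4.3.3) with a trend, on log2(value + 1), with adjusted p below 0.05 over all genes and no fold minimum. At 48 h, values below 0 were set to 0, TMM scaling came from edgeR 4.0.16, and batch was a covariate. A fold change on this scale understates that of low genes. edgeR and DESeq2 1.42.0 were run on the recovered reads as alternatives. The fits were tried on simulated data with changes larger than most reported here and with no batch effect, so smaller changes were not tested. KRAB boxes, fingers, GC content and length came from the GRCh38 annotation. Of the members, 67 share exon sequence with another gene, 31 on the same strand and 43 on the opposite one.

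The members and all lists were chosen with earlier results of these data known. The text names, per comparison, the 8 largest called changes in each direction, the 10 highest levels, the genes at the limit, those with listed roles and the TRIM28 (KAP1) and HUSH list, of which called genes and TRIM28 and SETDB1 are printed; others named were chosen after their values were seen. Same-numbered libraries did not deviate together in every pair (correlation -0.05 to 0.22 at 72 h and -0.103 to 0.315 at 48 h). The main fits used no block. These correlations do not settle whether libraries were paired, and counts with a replicate block are given below.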

Additional observations from a re-analysis of the deposited data

Results flagged for a closer look

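Of 131 groups of 4 to 6 libraries checked for a value far from the others, 6 were picked out, and chance alone picks about 1 in 20. In PNA2 libraries at 48 h, replicate 2 held 323 for ZNF850 where the others held 175 to 185, and 380 for ZNF585B where the others held 213 to 231. The same library held 169 for ZNF215, where the others held 527 to 564. ZNF385B stood at 1080 in PNA2 replicate 1 at 48 h and at 725 to 766 in the other PNA2 libraries. ZNF607 stood at 9.62 in PNA2 replicate 4 at 72 h and at 388 to 495 in the others. ZNF598 stood at 1740 in siRNA replicate 3 and at 1520 to 1550 in the other siRNA libraries.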

How the results depend on the processing

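At 72 h, edgeR gave 52 lower and 10 higher and DESeq2 55 and 14. Members at 100 or more gave 18 higher, and members at 600 or more 25 lower and 5 higher. Leaving out 1 library at a time gave 35 to 61 lower, 4 to 13 higher and medians of -0.31 to -0.21; the higher calls numbered 6, 4, 4 and 7 without control replicate 1, 3, 4 or 5 and 6, 5 and 7 without PNA2 replicate 1, 2 or 3. Correcting for GC content and length moved the median to -0.14, and with the replicate block as well there were 33 lower and 6 higher (median -0.14). The replicate block alone gave 51 lower and 8 higher.

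For PNA2 at 48 h, the replicate block gave 2 higher and 5 lower. The higher calls were 7 by the 48 h control mean, 35 at 100 or more (median 0.0862), 5 at 600 or more (median -0.0315, reversed) and 20 after the GC and length correction. Without a filter 7 were lower. Without rescaling there were 27 higher and 0 lower, and without a batch term as well 29 and 0 (median 0.22 in both). Fitting only the 2 groups gave 6 higher and 4 lower, batch A 8 higher, and batch B 6 higher and 3 lower. Leaving out 1 library gave 8 to 21 higher, 7 to 16 lower and medians of 0.01 to 0.04, with 8 higher without control replicate 4, 21 without PNA2 replicate 1, and 8 higher and 7 lower without PNA2 replicate 4. Unrescaled, with or without a batch term, ZNF589, ZNF207 and ZNF335 reversed to 0.0020, 0.0036 and 0.0078.

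Under siRNA, the replicate block gave 11 lower. There were 43 lower and 8 higher at 100 or more and 14 lower at 600 or more. Without rescaling there were 2 lower and 11 higher (median 0.12), and without a batch term as well 1 lower (median 0.14). Without the batch term alone 14 were lower (median -0.0605). Fitting only the 2 groups gave 35 lower and 10 higher, and the GC and length correction 37 lower. Leaving out 1 library gave 10 to 25 lower, 4 to 6 higher and medians of -0.12 to -0.09. ZNF326 reversed without rescaling to 0.0129 and without a batch term as well to 0.0215.

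For PNA2 against siRNA, the replicate block gave 16 higher. There were 82 higher at 100 or more (median 0.20), and 13 higher and 6 lower at 600 or more (median 0.062); the 48 h control mean gave a median of 0.0739. Without rescaling there were 12 higher and 6 lower, and without a batch term as well 10 and 4 (median 0.11). Without the batch term alone the median was 0.11, and after the GC and length correction 0.18. Fitting only the 2 groups gave 19 lower. Leaving out 1 library gave 27 to 44 higher, 9 to 13 lower and medians of 0.10 to 0.17, the lowest without PNA2 replicate 2.

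The GC and length correction was chosen after seeing the data. Calls kept in all alternatives run numbered 24 of 61 at 72 h, 2 of 25 for PNA2 at 48 h, 5 of 27 for siRNA and 12 of 49 for PNA2 against siRNA. The cause of each shift was not tested.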
